A study of Mus musculus with 26 samples.

Results

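The genes of the Six-Eya-Dach network encode a group of proteins that bind each other on DNA. The members analysed here were *Six2*, *Six4*, *Six5*, *Eya1*, *Eya2*, *Eya3*, *Eya4* and *Dach1*, which were chosen by their gene symbols. All 8 were found, each as 1 row, among 52609 gene rows of an RNA-seq table with 52454 gene symbols. SIX-family proteins are homeodomain transcription factors. EYA proteins have no DNA-binding domain of their own, are recruited by them as coactivators and carry a protein phosphatase domain, and DACH proteins are recruited as corepressors. The group takes its names from fly eye genes (sine oculis, eyes absent and dachshund), and in mouse embryos it is known for its roles in kidney, ear, muscle and limb development.

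The study asked where the de novo DNA methyltransferases DNMT3A and DNMT3B act during development, with Polycomb group (PcG) target developmental genes as a main class. Gene expression was measured by RNA-seq in 10 libraries, 1 for each condition. Cultured fibroblasts of 2 kinds and 2 organs were used. The 2i-MEFs, fibroblasts of chimeric E14.5 embryos, were female, at passage 1 and of the F1 strain of 129X1/SvJ and MSM/Ms. They descended from ES cells of the 2i/L medium in which either *Dnmt3a* or *Dnmt3b* had been disrupted with CRISPR/Cas9, and host cells of the ICR blastocyst had been removed by drug selection and cell sorting. The *Dnmt3a* KO and the *Dnmt3b* KO 2i-MEF library were compared with each other, since no WT 2i-MEF library was used here. The MEFs were male C57BL6 fibroblasts of E14.5 embryos at passage 1, labelled *Dnmt3a* WT or *Dnmt3a* KO and treated either with DMSO or with 10 µM of GSK126, an inhibitor of the H3K27 methyltransferase EZH2, for 2 days. The hearts and livers came from male C57BL6 E14.5 embryos labelled *Dnmt3a* WT or *Dnmt3a* KO. The KO allele of the MEFs and organs is a germline deletion, present in all cells. Libraries of MEFs, hearts and livers that the labels call *Dnmt3a* KO are named KO-labelled. The labels give the heart and the liver of a genotype the same number, so genotype and embryo cannot be told apart in them.

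The values are FPKM, reads per kilobase of transcript scaled by the number of mapped reads, so that levels can be compared between genes. With 1 library for each condition, the spread between replicates of a condition is unknown, and comparisons of 1 library with 1 library carry no test. Fits over 4 libraries with 2 additive terms (limma) were added after the data were seen. They leave 1 residual degree of freedom, treat libraries of another genotype, drug or organ as replicates and adjust p-values over all genes by Benjamini-Hochberg. Pairs of libraries were compared by the log2 ratio of FPKM + 1, and a gene was called when this ratio was at least 2-fold and the gene reached 1 FPKM in either library. Ratios of FPKM are given with a 95% interval (exact binomial) of the reads behind them. Reads were recovered from the steps of low FPKM values, at 9180617 to 26193057 mapped reads for each library, and these intervals cover counting error only.

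Fibroblast markers summed to 5937 to 17355 FPKM in the 6 fibroblast libraries and to at most 1361 FPKM in the organs, with all 6 markers at or above 1 FPKM in every fibroblast library. Cardiomyocyte markers summed to 13564 and 14677 FPKM in the hearts, and hepatocyte markers to 10837 and 17864 FPKM in the livers. Erythroid markers were high in both organs, at 14290.4 to 84742 FPKM, and endothelial markers summed to 45.1 to 173 FPKM there. The *Dnmt3a* gene followed its label in 2i-MEFs, with 4.21 FPKM where *Dnmt3a* was disrupted against 23.9 FPKM where *Dnmt3b* was, and in liver, with 12.7 FPKM in the KO-labelled library against 53.5 FPKM in WT liver. It went against the label elsewhere. The KO-labelled MEFs had 85.7 (DMSO) and 84.5 FPKM (GSK126) against 26.1 and 19.3 FPKM in WT MEFs, and the KO-labelled heart had 125 FPKM against 55.0 FPKM in WT heart. A value over the whole gene does not separate a deleted exon from the rest. *Pax8*, a gene of the network's upstream list, was higher in the 2i-MEFs with *Dnmt3a* disrupted (16.6 FPKM) than in those with *Dnmt3b* disrupted (0.715 FPKM), and also higher in the KO-labelled MEFs (4.24 and 6.92 FPKM) than in WT MEFs (0.236 and 0.101 FPKM). Whether any labels were exchanged was not tested, and these libraries are called by their labels.

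The members lie at 8 separate places of the genome (mm10, GENCODE M21). *Six2* (ENSMUSG00000024134.11, chr17:85684277-85688274, minus strand) and *Six5* (ENSMUSG00000040841.5, chr7:19094594-19098549, plus strand) are the shortest, at 3.998 and 3.956 kb, and *Six4* (ENSMUSG00000034460.9, chr12:73099609-73113456, minus strand) spans 13.848 kb. The coactivator genes are *Eya1* (ENSMUSG00000025932.14, chr1:14168954-14310235, minus strand), *Eya2* (ENSMUSG00000017897.18, chr2:165595032-165771727, plus strand), *Eya3* (ENSMUSG00000028886.15, chr4:132638987-132724765, plus strand) and *Eya4* (ENSMUSG00000010461.15, chr10:23102963-23350786, minus strand). *Dach1* (ENSMUSG00000055639.16, chr14:97786853-98169765, minus strand) is the longest, at 382.913 kb.

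The promoters of the members show how much CpG, the substrate of the DNMT3 enzymes, lies at these genes. RefSeq promoter sequences (GRCm38.p6) were matched for 6 of the 8 members, with 8 annotated starts in all, and none was matched for *Eya1* and *Eya2*. In the 250 bases before the start, the members held 13 to 35 CpG sites, against a median of 6 over 32851 promoters, and 31.5% of all promoters held 13 or more. The sequences of *Six2*, whose level differed most between the 2i-MEF libraries, of *Six5* and *Eya3*, which were above 1 FPKM in all libraries, of *Eya4*, which had the most CpG sites, and of *Dach1*, the corepressor of the group, are given 5′ to 3′ on the strand of the gene, with each CpG in capitals. Bases that GENCODE places in an exon were left out. The *Six2* stretch is chr17:85688275-85688504 (minus strand, 24 CpG sites in 230 bases), and that of *Six5* is chr7:19094294-19094543 (plus strand, 13 in 250 bases). The *Eya3* stretch is chr4:132638796-132638986 (plus strand, 13 in 191 bases). The *Eya4* stretch is chr10:23350137-23350193 (minus strand, 12 in 57 bases), and that of *Dach1* is chr14:98169766-98170015 (minus strand, 13 in 250 bases).
*Six2*: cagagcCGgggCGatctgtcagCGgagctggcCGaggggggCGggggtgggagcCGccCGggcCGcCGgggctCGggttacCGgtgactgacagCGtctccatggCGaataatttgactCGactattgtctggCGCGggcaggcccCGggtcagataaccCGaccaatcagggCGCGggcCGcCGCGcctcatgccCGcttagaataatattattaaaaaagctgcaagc
*Six5*: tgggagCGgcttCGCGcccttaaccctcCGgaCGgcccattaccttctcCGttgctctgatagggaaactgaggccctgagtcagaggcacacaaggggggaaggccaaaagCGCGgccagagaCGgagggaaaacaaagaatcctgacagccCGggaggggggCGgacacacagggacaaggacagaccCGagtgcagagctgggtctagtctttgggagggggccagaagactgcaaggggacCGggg
*Eya3*: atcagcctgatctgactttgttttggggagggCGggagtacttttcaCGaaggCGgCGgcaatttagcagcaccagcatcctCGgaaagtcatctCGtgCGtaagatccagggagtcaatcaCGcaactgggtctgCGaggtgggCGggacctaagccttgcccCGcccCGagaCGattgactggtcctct
*Eya4*: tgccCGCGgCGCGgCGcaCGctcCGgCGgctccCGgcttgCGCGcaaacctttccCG
*Dach1*: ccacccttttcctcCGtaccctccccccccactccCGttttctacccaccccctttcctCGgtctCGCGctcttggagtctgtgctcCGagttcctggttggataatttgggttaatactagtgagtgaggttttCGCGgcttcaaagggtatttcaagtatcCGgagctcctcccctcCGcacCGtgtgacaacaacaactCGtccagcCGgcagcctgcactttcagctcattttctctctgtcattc

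SIX-family proteins are known to bind the MEF3 element. Its core TCAGGTT was searched on both strands of the 250 bases before each start, and 3.49% of all promoters hold it. Among the 8 member promoters, 1 did, that of *Six4*, at 97 bases before the first of its 2 starts and within an exon of the gene. The 30 bases around it, chr12:73113324-73113353 on the minus strand, are given with the core, which lies on the other strand, in capitals.
*Six4*: ggcctgggggaAACCTGAtcggccagatcc

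The members differed widely in level. *Eya3* was the highest member in 9 of the 10 libraries and ranged from 14.2 to 34.0 FPKM. The exception was the KO-labelled MEF library with DMSO, in which *Eya4* had 14.7 FPKM and *Eya3* 14.2 FPKM. *Six5* followed in the organs and ranged from 1.92 to 10.0 FPKM over all libraries. *Six2*, *Eya1*, *Eya2* and *Eya4* reached 9.34 to 14.7 FPKM in the highest fibroblast library of each but stayed at or under 2.26 FPKM in heart and liver. *Six4* was at most 2.80 FPKM and *Dach1* at most 1.28 FPKM. For *Dach1*, the corepressor, the WT heart library was the only one above 1 FPKM.

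**Figure D1:**
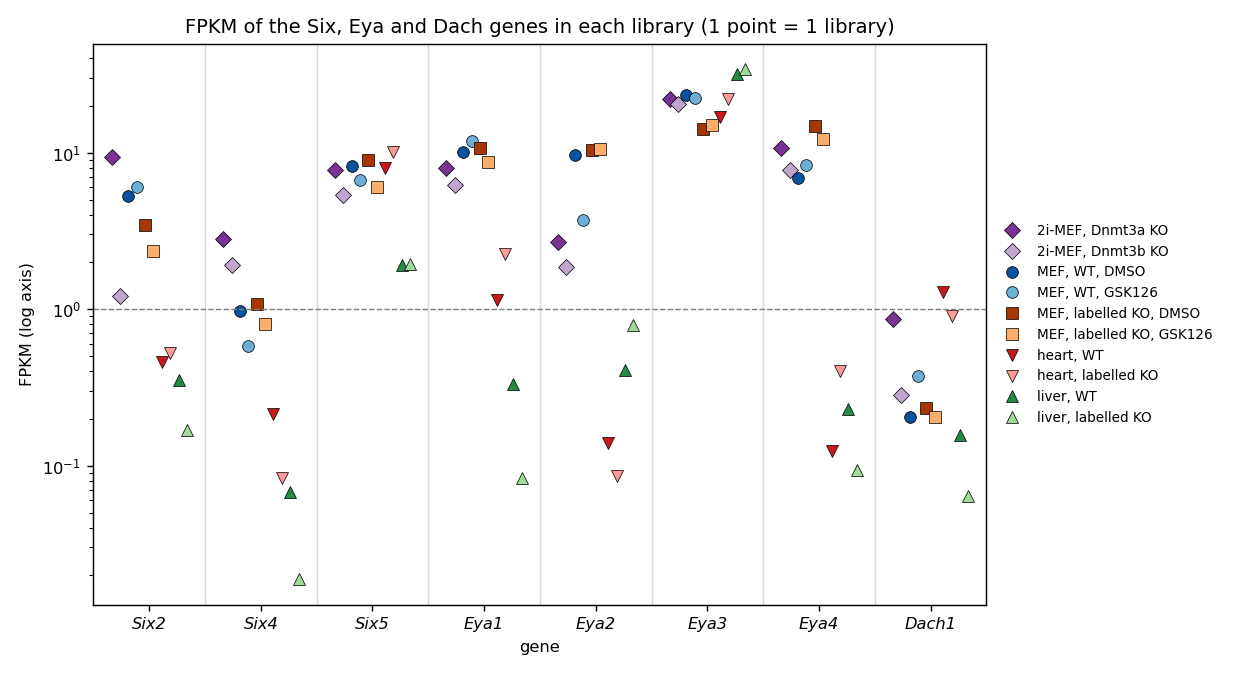
FPKM (log axis) of the 8 genes, with 1 point for each of the 10 libraries and a dashed line at 1 FPKM. *Eya3* lies between 14.2 and 34.0 FPKM throughout, whereas the organ libraries (triangles) of *Six2*, *Six4*, *Eya2* and *Eya4* all lie under 1 FPKM.

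The make-up of each family differed between the fibroblast and the organ libraries. *Eya3*, a broadly expressed EYA gene, made up 88.8% to 97.2% of the summed EYA FPKM in heart and liver, but 50.8% and 56.2% in the 2i-MEFs and 28.4% to 48.4% in the MEFs. *Eya4* had its largest share, 29.5%, in the KO-labelled MEFs with DMSO, against 13.7% in the WT MEFs with DMSO. Among the SIX-family members, *Six5* made up 81.9% to 94.3% of the sum in the organs and 39.0% to 66.5% in the fibroblasts. *Six2* was the largest SIX-family member in 1 library only, the *Dnmt3a* KO 2i-MEFs, with 46.9%. The summed EYA level was 36.2 to 50.05 FPKM in the 6 fibroblast libraries and 18.4 to 34.95 FPKM in the organs, and the SIX-family sum was 8.53 to 19.9 FPKM in fibroblasts and 2.12 to 10.6 FPKM in the organs.

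**Figure D2:**
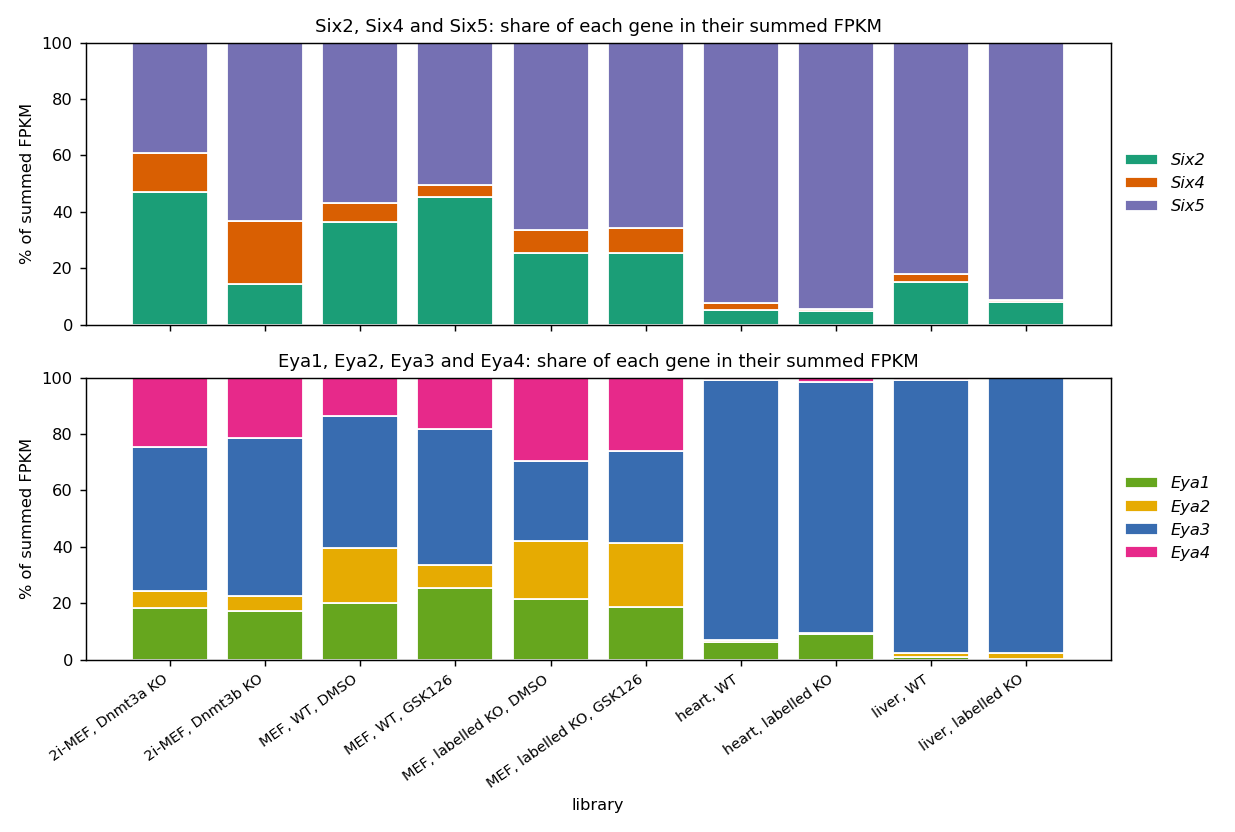
Share of each gene (percent) in the summed FPKM of *Six2*, *Six4* and *Six5* (top) and of *Eya1* to *Eya4* (bottom), with 1 bar for each library. *Six5* and *Eya3* fill most of each organ bar, and the fibroblast bars are divided among several genes.

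In 2i-MEFs, *Six2*, which keeps nephron progenitors of the kidney undifferentiated, reached 9.34 FPKM where *Dnmt3a* was disrupted and 1.22 FPKM where *Dnmt3b* was, or 165 and 18 reads. This ratio was 7.67 (95% interval 4.73 to 13.3), and it was the only call among the 7 members with at least 1 FPKM, where 9.01% of all genes were called, so that the number of calls is not particular to the members. *Six4* had 2.80 and 1.92 FPKM (ratio 1.46, 1.15 to 1.87), and *Six5* had 7.76 and 5.40 FPKM (1.44, 1.16 to 1.79). Both of these genes were thus higher with *Dnmt3a* disrupted, by less than 2-fold but beyond the counting error of their reads. Of the coactivators, *Eya4* had 10.8 and 7.76 FPKM (1.39, 1.17 to 1.66), *Eya1* had 7.98 and 6.25 FPKM (1.28, 1.01 to 1.64), and *Eya2* had 2.67 and 1.85 FPKM (1.44, 0.965 to 2.24). *Eya3* had 22.1 and 20.3 FPKM, a ratio of 1.09 (0.995 to 1.19). The intervals of *Eya2* and *Eya3* include 1. *Dach1* had 0.865 and 0.282 FPKM, or 46 and 13 reads (3.06, 1.58 to 6.0). The ratios of all 8 members were above 1. Their median log2 ratio was 0.40, whereas 53.2% of all genes tested had a ratio above 1 and the median of all genes was 0.03. These values describe 1 library against 1 library, each from mutated ES cells of 1 genotype, and the ES cell line and the genotype cannot be told apart.

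In MEFs with DMSO, *Eya4*, in which mutations cause hearing loss in people, had 14.7 FPKM in the KO-labelled library and 6.87 FPKM in WT. The ratio was 2.15 (1.90 to 2.42), and on the scale of FPKM + 1 it lay just past the 2-fold threshold, and just under it (0.97 on the log2 scale) after centring on the median of all genes. It was the only call among 7 members, where 6.26% of all genes were called. *Eya3* went the other way, with 14.2 against 23.4 FPKM (0.606, 0.567 to 0.646), and *Six2* had 3.44 against 5.27 FPKM (0.653, 0.515 to 0.824). The other 5 members had intervals that include 1. Their FPKM, KO-labelled first and WT second, were 1.08 and 0.968 for *Six4*, 8.97 and 8.20 for *Six5*, 10.6 and 10.1 for *Eya1*, 10.4 and 9.72 for *Eya2*, and 0.233 and 0.206 for *Dach1*. The median log2 ratio of the members was 0.08, and that of all genes tested was 0.04.

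The same genotypes were compared with GSK126. *Eya4* had 12.1 FPKM in the KO-labelled library and 8.33 FPKM in WT (1.46, 1.30 to 1.64), and *Eya3* had 15.1 and 22.3 FPKM (0.675, 0.631 to 0.721). *Six2* had 2.34 and 6.04 FPKM (0.387, 0.294 to 0.505) and was called lower. *Eya2*, with 10.5 and 3.69 FPKM (2.86, 2.39 to 3.44), was called higher. These were 2 calls among 6 members, where 5.83% of all genes were called. *Eya1* had 8.66 and 11.8 FPKM (0.735, 0.637 to 0.843), *Six4* had 0.808 and 0.581 FPKM (1.39, 1.01 to 1.90), and *Dach1* had 0.204 and 0.372 FPKM (0.549, 0.303 to 0.968). *Six5* had 6.06 and 6.72 FPKM, with an interval that includes 1 (0.776 to 1.04). *Six2* was the higher in the 2i-MEFs with *Dnmt3a* disrupted, but there against *Dnmt3b* KO and not WT, so the references are unlike. In MEFs, *Six2* was lower in both KO-labelled libraries than in both WT libraries. *Eya3* was also lower, and *Eya4* higher, in both KO-labelled than in both WT libraries. In these MEFs, mesothelial and epicardial markers summed to 92.6 and 222 FPKM in the KO-labelled libraries against 50.2 and 60.2 FPKM in WT, and all 5 markers were detected in each. *Upk3b* and *Msln* made up most of these sums. *Tbx18* of the same list went the other way, with 1.72 and 1.49 FPKM in the KO-labelled libraries against 4.59 and 4.39 FPKM in WT. Fibroblast markers summed to 8987 and 5937 FPKM in the KO-labelled libraries and to 11741 and 8739 FPKM in WT. The part of these markers in the values of the members was not tested. Fewer cells of a type and less RNA per cell cannot be told apart in bulk RNA.

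**Figure D3:**
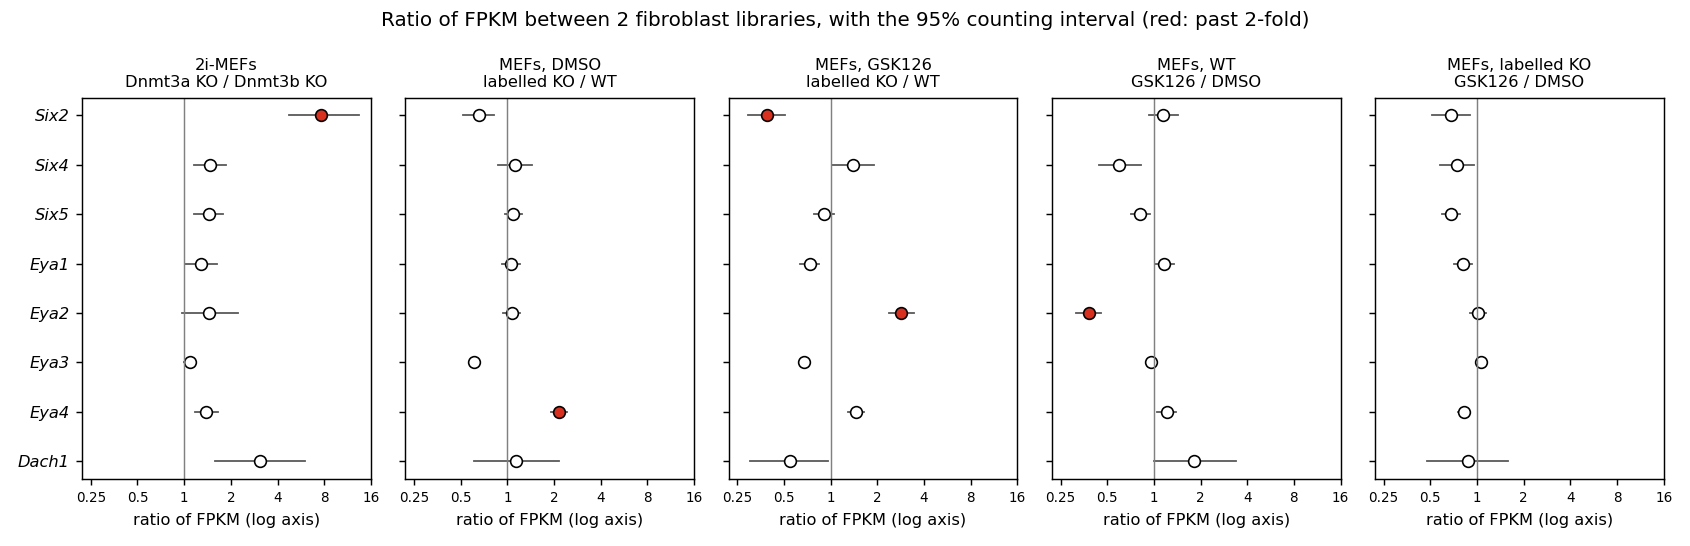
Ratio of FPKM (log axis) of each gene in 5 comparisons of 2 fibroblast libraries, with the 95% counting interval as a line and genes called at 2-fold of FPKM + 1 in red. *Six2* lies at 7.67 in the 2i-MEFs and at 0.653 and 0.387 in KO-labelled over WT MEFs, and *Eya2* lies at 0.379 only where WT MEFs with GSK126 are set over DMSO.

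The EZH2 inhibitor was compared with DMSO in each genotype. In WT MEFs, *Eya2* had 3.69 FPKM with GSK126 and 9.72 FPKM with DMSO, or 160 and 393 reads. Its ratio of 0.379 (0.313 to 0.456) was the only call among 6 members, where 3.76% of all genes were called. In the KO-labelled MEFs, *Eya2* had 10.5 FPKM with GSK126 and 10.4 FPKM with DMSO (1.02, 0.901 to 1.15). The WT library with GSK126 thus stood alone among the 4 MEF libraries, the other 3 of which had 9.72 to 10.5 FPKM. *Eya1* and *Eya4* were higher with GSK126 in WT and lower in the KO-labelled libraries. *Eya1* had 11.8 against 10.1 FPKM in WT (1.17, 1.02 to 1.35) and 8.66 against 10.6 FPKM in the KO-labelled libraries (0.813, 0.710 to 0.930). *Eya4* had 8.33 against 6.87 FPKM in WT (1.21, 1.06 to 1.40) and 12.1 against 14.7 FPKM in the latter (0.824, 0.750 to 0.905). The difference between the genotypes was not tested for any member.

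The SIX-family members had ratios under 1 with GSK126, apart from *Six2* in WT. *Six5* was at 0.819 of its DMSO level in WT (0.711 to 0.946) and at 0.676 in the KO-labelled libraries (0.592 to 0.770). *Six4* was at 0.600 (0.440 to 0.822) and 0.747 (0.580 to 0.956). *Six2* was at 1.15 in WT (0.924 to 1.43) and at 0.678 in the latter (0.512 to 0.904). *Eya3* was at 0.955 and 1.07, and the intervals of both ratios include 1. *Dach1* was at 1.81 (0.997 to 3.39) and 0.877 (0.475 to 1.59), from 18 to 35 reads a library. In the KO-labelled libraries, none of 7 members was called, where 5.26% of all genes were. The median log2 ratio of the members was 0.05 in WT, against 0.0029 for all genes, and -0.23 in the KO-labelled libraries, against -0.04 for all genes. The comparisons of the 4 MEF libraries share libraries and are not independent of each other. Over these 4 libraries, limma with genotype and drug as terms called none of 7 members in either contrast, where 0.0773% of all genes were called for genotype and 0.0422% for the drug. At an unadjusted p under 0.05 it gave 3 members for genotype (*Eya3*, *Eya4* and *Six2*), with adjusted p = 0.22, 0.25 and 0.31, and none for the drug. The genotype contrast was a log2 ratio of -0.61 ± 0.15 (SE) for *Eya3*, 0.75 ± 0.19 for *Eya4* and -0.79 ± 0.23 for *Six2*. The SE of this contrast comes from libraries that differ in drug, so spread between embryos or MEF cultures is not measured.

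The MEFs were then set against heart and liver, with 4 libraries on each side. *Six2*, *Eya1*, *Eya2* and *Eya4* were apart by at least 2-fold of FPKM + 1, the lowest MEF library against the highest organ library, where 6.87% of all genes were apart in this direction. No member was apart in the other direction, where 3.3% of all genes were. The separation was widest for *Eya4*, with 6.87 to 14.7 FPKM in MEFs and 0.0935 to 0.401 FPKM in the organs, so that its lowest MEF level was 17.1 times its highest organ level. *Eya2* had 3.69 to 10.5 against 0.0865 to 0.786 FPKM, and *Six2* had 2.34 to 6.04 against 0.169 to 0.523 FPKM. *Eya1*, which kidney and ear formation need, had 8.66 to 11.8 FPKM in MEFs and 0.0838 to 2.26 FPKM in the organs. *Six4* did not overlap either, with 0.581 to 1.08 against 0.0188 to 0.213 FPKM. *Six5*, *Eya3* and *Dach1* overlapped between MEFs and organs.

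Between heart and liver, *Six5* had the largest log2 ratio of FPKM + 1 of the members, although the plain FPKM ratios of *Dach1* in both comparisons and of *Eya1* in the KO-labelled organs were larger. *Six5* had 7.97 FPKM in WT heart and 1.92 FPKM in WT liver (4.16, 3.42 to 5.06), and 10.0 and 1.94 FPKM in the KO-labelled organs (5.17, 4.26 to 6.29). *Six5* was the only call in WT organs among 4 members, where 41.6% of all genes were called. This count depended on the setting, with 3 members (*Six5*, *Eya1* and *Dach1*) at a pseudocount of 0.1 in place of 1, 2 (*Six5* and *Dach1*) after centring on the median of all genes, and 4 (*Six5*, *Eya1*, *Eya3* and *Dach1*) at a threshold of 1.5-fold. In the KO-labelled organs, *Six5* and *Eya1* were called among 3 members, where 43.7% of all genes were. *Eya1* had 1.15 FPKM in WT heart and 0.331 FPKM in WT liver (3.47, 1.95 to 6.53), and 2.26 and 0.0838 FPKM in the KO-labelled organs (27.0, 10.9 to 110), the last value from 4 reads. *Dach1*, known for its part in the growth of coronary arteries, had 1.28 and 0.157 FPKM in WT (8.18, 5.04 to 13.8) and 0.906 and 0.0639 FPKM in the latter (14.2, 6.79 to 34.1), although its log2 ratio of FPKM + 1 stayed under the threshold at 0.98 and 0.84. Endothelial markers, which also differ between these organs, summed to 167 and 173 FPKM in the hearts and 45.1 and 49.4 FPKM in the livers, and all 4 were detected in each. Their part in the *Dach1* values was not tested. *Eya3* and *Eya2* were higher in liver. *Eya3* had 16.9 against 31.7 FPKM in WT (0.534, 0.503 to 0.566) and 21.9 against 34.0 FPKM in the KO-labelled organs (0.644, 0.607 to 0.682). *Eya2* had 0.139 against 0.407 FPKM and 0.0865 against 0.786 FPKM, from 3 to 45 reads a library. Paired by the number that heart and liver share in the labels, limma called all 4 members that reached 1 FPKM, where 60.3% of all genes were called. Of the organ libraries, *Eya1* and *Dach1* reached 1 FPKM in heart only, so for them the filter favoured a higher level in heart. Their calls and the count of 4 are therefore no test of that direction. The log2 ratio of heart over liver was 1.76 ± 0.19 (SE) for *Six5* (adjusted p = 0.00145), -0.74 ± 0.15 for *Eya3* (0.00984), 1.14 ± 0.33 for *Eya1* (0.0330) and 0.91 ± 0.28 for *Dach1* (0.0387), with the same direction in both pairs.

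In heart, no member was called between the genotypes among 4 members, where 4.04% of all genes were. The largest log2 ratio was that of *Eya1*, with 2.26 FPKM in the KO-labelled heart and 1.15 FPKM in WT (1.97, 1.35 to 3.00). *Eya3* had 21.9 and 16.9 FPKM (1.29, 1.20 to 1.39), and *Six5* had 10.0 and 7.97 FPKM (1.26, 1.10 to 1.44). *Eya4* had 0.401 and 0.124 FPKM, or 18 and 7 reads (3.24, 1.26 to 8.95). Lower in the KO-labelled heart were *Dach1* with 0.906 and 1.28 FPKM (0.706, 0.518 to 0.963) and *Six4* with 0.0836 and 0.213 FPKM (0.393, 0.153 to 0.899). *Six2* (0.523 and 0.458 FPKM) and *Eya2* (0.0865 and 0.139 FPKM) had intervals that include 1. The median log2 ratio of the members was 0.18, and that of all genes tested was 0.0036. Hepatocyte markers summed to 33.0 FPKM in WT heart and 7.24 FPKM in the KO-labelled heart, with 4 of 6 at least 2-fold lower in the latter. Erythroid markers summed to 19836 and 14290.4 FPKM in the same order, with 1 of 6 at least 2-fold lower, whereas no cardiomyocyte, fibroblast or endothelial marker was 2-fold apart. The part of these markers in the values of the members was not tested.

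In liver, none of 2 members was called, where 3.68% of all genes were. *Eya3* had 34.0 FPKM in the KO-labelled liver and 31.7 FPKM in WT (1.07, 1.03 to 1.12), and *Six5* had 1.94 and 1.92 FPKM (1.01, 0.795 to 1.29). The other 6 members were under 1 FPKM in both livers. *Eya1* had 0.0838 FPKM in the KO-labelled liver and 0.331 FPKM in WT, or 4 and 17 reads (0.253, 0.0587 to 0.735), and *Dach1* had 0.0639 and 0.157 FPKM (0.407, 0.155 to 0.966). *Eya2* was higher, with 0.786 and 0.407 FPKM, or 45 and 24 reads (1.93, 1.14 to 3.28). Skeletal muscle genes differed between these livers. *Myog* was at 6.31 FPKM in WT liver and 0.150 FPKM in the KO-labelled liver, *Myh3* at 9.96 and 0.248 FPKM, and *Myod1* at 2.55 FPKM and 0. The whole list of 8 skeletal muscle markers summed to 126 and 24.3 FPKM, with 6 and 2 of them at or above 1 FPKM. In WT and KO-labelled heart, the list summed to 13051 and 10985 FPKM. *Actc1*, *Acta1*, *Tnnt1*, *Ckm* and *Ttn* of this list were higher in both hearts than in both livers. Between the livers, markers of other cell types differed too. Fibroblast markers summed to 494 FPKM in WT and 257 FPKM in the KO-labelled liver, with 2 of 6 at least 2-fold lower in the latter. In the same order, hepatocyte markers summed to 17864 and 10837 FPKM and erythroid markers to 56466 and 84742 FPKM. The part of the muscle genes and of these markers in the values of *Eya1* and the other members was not tested. Over both organs, with organ as a term, limma called none of 4 members between the genotypes, where 0.0066% of all genes were called, and none had an unadjusted p under 0.05.

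**Figure D4:**
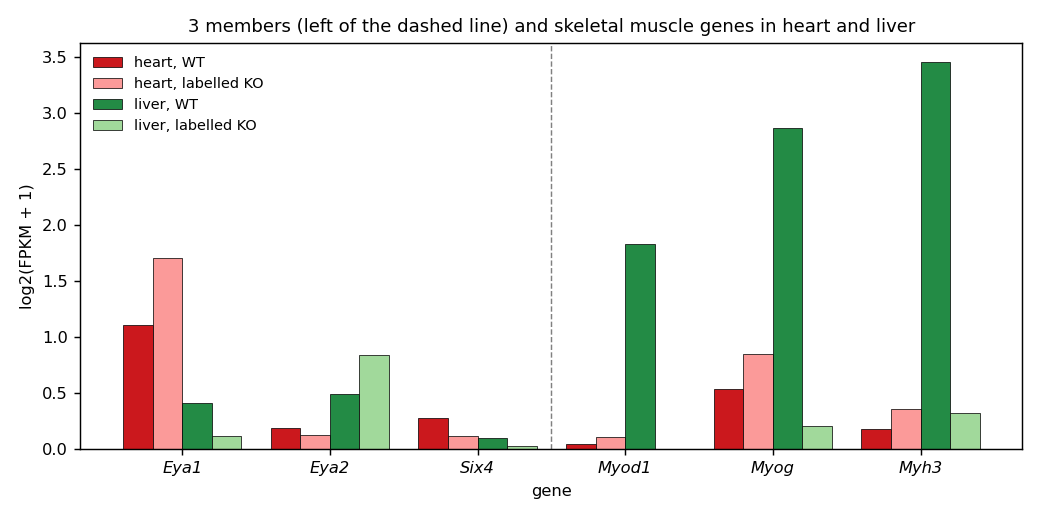
Log2(FPKM + 1) of *Eya1*, *Eya2* and *Six4*, and of the muscle genes *Myod1*, *Myog* and *Myh3*, with 1 bar for each of the 4 organ libraries. *Myod1*, *Myog* and *Myh3* are highest in the WT liver library, where *Eya1* (0.331 FPKM) is above its level in the KO-labelled liver (0.0838 FPKM) but under both hearts. Genes of the muscle list that are not shown are higher in both hearts.

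Between the 2i-MEFs and the MEFs, which differ in strain, sex and origin, no member was apart by at least 2-fold in either direction, where 1.73% of all genes were apart with 2i-MEFs higher and 2.72% with MEFs higher. *Six4* was higher in 2i-MEFs without overlap, at 1.92 and 2.80 FPKM against 0.581 to 1.08 FPKM in MEFs. *Eya1* (6.25 and 7.98 against 8.66 to 11.8 FPKM) and *Eya2* (1.85 and 2.67 against 3.69 to 10.5 FPKM) were lower in 2i-MEFs without overlap. The lowest *Eya2* value of the MEFs was that of the WT library with GSK126, and without this library *Eya2* was apart by at least 2-fold. *Six2*, *Six5*, *Eya3*, *Eya4* and *Dach1* overlapped.

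The other genes of the network were taken from lists written with earlier results known. *Six3*, the nearest gene to *Six2* at 54974 bases, and *Six6* were at 0 in all libraries, and *Dach2* was at most 0.475 FPKM. Of 5 PAX genes, which act upstream of the group in eye and kidney, 4 were under 0.39 FPKM in every library. The exception was *Pax8*, whose fibroblast values are given above with the labels and which had at most 0.0491 FPKM in the organs. *Pax8* and *Six2* therefore both differed between the *Dnmt3a* KO and the *Dnmt3b* KO 2i-MEFs. Against another reference, WT, *Pax8* was higher and *Six2* was lower in the KO-labelled MEFs. The nephron progenitor genes listed beside *Six2* gave no common direction in 2i-MEFs. *Osr1* had 32.6 FPKM with *Dnmt3a* disrupted and 15.9 FPKM with *Dnmt3b* disrupted. In the same order, *Wt1* had 1.57 and 6.22 FPKM, *Pax2* had 0.190 FPKM and 0, *Sall1* had 0.235 and 0.237 FPKM, and *Cited1* had 0.845 FPKM and 0. The 5 genes summed to 35.4 and 22.4 FPKM there and to 35.6 to 47.7 FPKM in MEFs. Neural markers summed to at most 35.3 FPKM in any fibroblast library.

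All 11 cofactors were detected in every library. They include the TLE and AES corepressors, *Ski* and *Skil*, which are related to *Dach1*, and *Sobp*. In 2i-MEFs, 2 of the 11 were called higher with *Dnmt3a* disrupted, at a list median log2 ratio of 0.28, and *Tle2* had the largest log2 ratio, with 15.3 and 6.62 FPKM. These counts stand beside the 9.01% of all genes called there. In the MEFs with DMSO, 1 was called higher in the KO-labelled library, *Crebbp* with 9.85 against 4.36 FPKM, where 6.26% of all genes were called. None was called between the genotypes with GSK126, with GSK126 against DMSO or between the genotypes in heart or liver, where 3.68% to 5.83% of all genes were called. Between WT heart and WT liver, 4 of the 11 were higher in heart and 1 was lower, where 41.6% of all genes were called. The largest log2 ratio was that of *Sobp*, with 4.53 against 0.128 FPKM, and the smallest that of *Tle1*, with 4.57 against 15.6 FPKM. Of 11 genes known as targets of SIX-family proteins, none was called in the 2i-MEFs, in the 4 comparisons of MEFs or in heart between the genotypes, where 3.76% to 9.01% of all genes were called. Only 4 or 5 of the 11 targets reached 1 FPKM in a fibroblast library, and 5 or 6 in a heart. The shares of all genes count only genes that reached 1 FPKM in either library. In liver between the genotypes, 2 were lower in the KO-labelled library, namely the muscle regulators *Myod1* and *Myog* given above, where 3.68% of all genes were called. Between heart and liver, 4 targets were higher and 2 were lower in WT heart, and 3 were higher in the KO-labelled heart, where 41.6% and 43.7% of all genes were called.

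The nearest genes on either side were set beside the members. *Dmpk*, the myotonic dystrophy gene, ends 772 bases before *Six5*. It had 141 and 149 FPKM in the KO-labelled MEFs with DMSO and GSK126 and 63.2 and 69.2 FPKM in the WT MEFs, whereas *Six5* had 8.97 and 6.06 against 8.20 and 6.72 FPKM. In WT, *Dmpk* had 19.6 FPKM in heart and 15.5 FPKM in liver, whereas *Six5* had 7.97 and 1.92 FPKM. In WT MEFs, *Slc2a10*, the nearest gene before *Eya2*, had 7.13 FPKM with GSK126 and 2.93 FPKM with DMSO, opposite to *Eya2*, and *Zmynd8*, the nearest after it, had 20.7 and 27.7 FPKM. *Xkr8*, 131 bases after *Eya3*, was at 1.73 to 9.82 FPKM, under *Eya3* in every library. Rows that overlap *Eya1*, *Eya2*, *Eya4* and *Dach1* were at 0 in all libraries.

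For each of the 6 members with at least 5 FPKM in some library, the 3 genes with the most similar pattern were found among 12665 genes, by Pearson's r of log2(FPKM + 1) over the 10 libraries. These values are descriptions, and the points share the division into 6 fibroblast and 4 organ libraries. They were *Pcdh10* (r = 0.981), *Cxcl1* (0.979) and *Chrdl1* (0.976) for *Six2*, and *Pitpnm1* (0.977), *Irx3* (0.973) and *Gm13066* (0.972) for *Six5*. For *Eya1* they were *Tspyl1* (0.993), *B3gnt9* (0.993) and *Metrnl* (0.991), and for *Eya2* *Plpp1* (0.973), *Lrrn3* (0.968) and *Spsb2* (0.961). *Eya4* was most like *Hoxb9* (0.996), *Cyp4f17* (0.994) and *D030025P21Rik* (0.994). *Eya3* had the lowest values, with *Eva1a* (0.938), *Rbbp5* (0.916) and *Retreg3* (0.916).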

How the data were processed

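RNA-seq was analysed in 10 libraries. The libraries were made with the TruSeq stranded mRNA kit and sequenced as 75-base single reads. Per the study's methods, the authors removed adapters (cutadapt 1.15), aligned the reads on mm10 and GENCODE M15 (tophat 2.1.1, Bowtie2 2.3.2), discarded those with a MAPQ under 20 and ran cufflinks 2.2.1. The submitters' processing notes name cutadapt 1.9.1, TopHat2 2.1.0 and Bowtie2 2.2.5. The authors deposited FPKM as 1 table without read counts. FPKM divides out transcript length and depth, and cufflinks shares reads among transcripts, so members with several transcripts depend on that estimate.

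FPKM of rows with the same symbol were summed (155 rows repeat a symbol). Ratios were log2 of FPKM + 1, and calls were at least 2-fold at 1 FPKM in either library. Depth was recovered from FPKM values under 10 reads of genes with 1 transcript of at least 1500 bases (GENCODE M21): 96.4% to 98.0% of the values lay within 0.1 of whole reads, against 20% by chance. Reads of a member were calculated on its shortest basic coding transcript, with the fragment length fitted for each library, 200 or 204 bases. Depth and intervals were tested on simulated data, where depth was recovered within 0.0081% and 94.5% of 200 intervals covered the true ratio.

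Gene lists held other SIX-family and DACH genes, PAX genes, cofactors, known target genes and markers of fibroblasts, cardiomyocytes, hepatocytes, erythroid, endothelial, skeletal muscle, mesothelial and epicardial, nephron progenitor and neural cells. The members and lists were chosen with earlier results of these data known. Named genes were all members, the 3 genes most like each member with at least 5 FPKM, the list genes with the largest and smallest ratio, the nearest gene on each side and genes that check labels or markers. Some listed genes that this rule names are not reported here. *Osr1*, *Wt1*, *Sall1*, *Cited1*, *Myh3*, *Myod1*, *Msln* and *Upk3b* were named after their values were seen. Alternatives were a pseudocount of 0.1, centring on the median, a 1.5-fold threshold, no filter, only the row of highest mean for a repeated symbol, and each library left out in turn. limma 3.58.1 (R 4.3.3, eBayes with trend) was fitted to log2(FPKM + 1) of 4 MEF or 4 organ libraries with 2 additive terms, after the data were seen and tested on simulated data. The organ pairing comes from the labels, and with 2 pairs it was not checked further. The 16 DNA methylation samples were not analysed here. Calculations were run in Python 3.11.15 (scipy 1.17.1, pandas 2.3.3 and numpy 2.4.6).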

Additional observations from a re-analysis of the deposited data

Results flagged for a closer look

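Genes were looked at again where the same contrast moved them in opposite directions in 2 settings, beyond counting error in both. The genotype contrast was set side by side for MEFs with DMSO and with GSK126, MEFs with DMSO and each organ, and heart and liver. The drug and organ contrasts were set side by side between the genotypes. Among these pairs, *Eya1*, *Eya4* and *Eya3* went in opposite directions. MEFs with GSK126 were not paired with the organs, although *Six4* also went in opposite directions between them and heart. Its ratio, KO-labelled over WT, was 1.39 (1.01 to 1.90) in those MEFs and 0.393 (0.153 to 0.899) in heart. The difference was not tested for any of these genes.

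With GSK126 against DMSO, *Eya1* had a log2 ratio of FPKM + 1 of 0.21 in WT MEFs and -0.27 in KO-labelled MEFs, and *Eya4* had 0.25 and -0.26. For the genotypes, *Eya1* had 0.60 in heart and -0.30 in liver, the latter from 4 and 17 reads. *Myod1*, *Myog* and *Myh3* were highest in the WT liver library, whereas *Actc1*, *Acta1*, *Tnnt1*, *Ckm* and *Ttn* of the same list were higher in both hearts. *Eya3*, KO-labelled over WT, had -0.69 in MEFs with DMSO, 0.35 in heart and 0.10 in liver. *Dnmt3a* itself was higher in the KO-labelled library in MEFs and heart and lower in liver, so these contrasts are between labels.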

How the results depend on the processing

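The number of members called kept within 1.5 times of its value under most alternatives. The exceptions were MEFs with DMSO between the genotypes, with 0 calls after centring on the median (*Eya4* fell just under the threshold, since centring moved the ratios by 0.03) and 2 calls at 1.5-fold (*Eya3* was added), heart between the genotypes, with 1 call at 1.5-fold (*Eya1*), and WT heart against liver, with 3 calls at a pseudocount of 0.1 (*Eya1* and *Dach1* were added), 2 after centring (*Dach1* was added) and 4 at 1.5-fold. Centring moved that comparison by 0.13, the most of all 9. Leaving out each library in turn gave 4 to 4 members apart between MEFs and organs and 0 to 1 between 2i-MEFs and MEFs; the 1 was *Eya2* without the WT MEF library with GSK126. Without a filter on low values, no count changed, which follows from the pseudocount of 1. Of 72 log2 ratios of members, 29 fell outside their counting interval on the scale of FPKM + 1 at a pseudocount of 0.1, and 3 after centring. A smaller pseudocount itself stretches the ratios of low genes, so the former need not be a move beyond counting error. None moved with the row of the highest mean per symbol, and no called ratio changed sign. The limma fits, chosen after seeing the data, called 4 members between heart and liver with the shared number as a replicate block, and 0 between the genotypes in MEFs, with GSK126 against DMSO or between the genotypes in the organs. Of these 4, *Eya1* and *Dach1* passed the filter of 1 FPKM through heart only. Low members were limited by depth: *Six4*, *Eya1*, *Eya2*, *Eya4*, *Six2* and *Dach1* had 3 to 45 reads in the livers.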
